A study of Capra hircus with 3 samples.

Results

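CHODL stroma is a class of 506 barcodes in the library labelled E125, 6.91% of the 7325 barcodes kept there and a part of the 20825 kept in all 3 libraries of the series. Its members were chosen by their counts. A barcode had to carry at least 1 unique molecular identifier (UMI) of CHODL, no fewer CHODL UMIs than MGP and COL12A1 UMIs together, and at least 1000 UMIs with at most 20% from mitochondrial genes. Barcodes with 0.2% or more of their UMIs on ZP3, with 2 or more UMIs of the endothelial genes CDH5, ROBO4, SOX18, TIE1 and ESAM, or with 3 or more of FST, KCNK12 and HSD17B1 were left out. The levels of these genes in the members are therefore a description of the choice. The same holds for every comparison of the members with MGP COL12A1 stroma, the 4078 barcodes of the same library that met the same limits and carried more MGP and COL12A1 than CHODL. No value below is a test.

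The series holds droplet single-cell RNA counts of male goat (Capra hircus) fetuses labelled testis, with 1 library for each of the embryonic stages E85, E105 and E125 and no replicate, treatment or mutant. The testes were digested with collagenase IV, hyaluronidase, trypsin and DNase I, and the labels do not say how many fetuses went into a library. The kept barcodes number 6376 at E85, 7124 at E105 and 7325 at E125. No barcode of a member was also kept in another library, while 11 of all kept E125 barcodes also occurred at E85 and 6 at E105. The contents of the library labelled E125 go against its label. AMH, the Sertoli cell hormone, stood at 1401 and 3817 UMIs per 1000000 UMIs of the class (CPM) in E85 and E105 but at 31.6 CPM in E125. INSL3, made by fetal Leydig cells, stood at 33.7 CPM in E105 and 0.665 CPM in E125. ZP3, a zona pellucida gene of oocytes, stood at 1.17, 2.51 and 2109 CPM, and FST, which pregranulosa cells of the fetal ovary express, at 4.30, 2.30 and 240.4 CPM. Stage, library and these contents cannot be told apart, so the members are described as cells of the library labelled E125 and not as testis cells of that age.

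Stromal cells fill the space between the cords or follicles of a fetal gonad, lay down collagen and proteoglycans, and give rise to the steroid-producing and contractile cells around them. CHODL encodes chondrolectin, a C-type lectin of the cell membrane known mainly from muscle and motor neurons. PDGFRA is the alpha receptor of platelet-derived growth factor and TCF21 a basic helix-loop-helix transcription factor, and both mark gonadal interstitial progenitors in the mouse.

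CHODL (ENSCHIG00000024133) stood at 465 CPM in the 506 members (95% interval 439 to 492), against 43.1 CPM in MGP COL12A1 stroma and 19.9 CPM in all other E125 barcodes. All intervals here are exact and cover counting error only. TCF21 (ENSCHIG00000015635) stood at 467 CPM in the members, against 929 CPM in MGP COL12A1 stroma and 339 CPM in all other barcodes. PDGFRA (ENSCHIG00000005194) stood at 196 CPM in the members, against 263 and 97.0 CPM in the same 2 references. Of the members, 392 carried a UMI of PDGFRA or TCF21 and 195 carried both. CHODL thus marked the class by choice, and over all members the other 2 markers were present but lower than in the stroma it was set against. DCN, the collagen-binding proteoglycan decorin, stood at 3422 CPM in the members and was found in 90.9% of them.

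The choice rested on few molecules. The median member had 2 CHODL UMIs and the highest 17, and 248 members had exactly 1. CHODL UMIs were also found in barcodes of other classes. With each barcode thinned to 1000 UMIs, CHODL was left in 50.4% of the members and in 3.43% of MGP COL12A1 stroma. It was left in 0.643% of endothelial barcodes, 1.16% of FST, KCNK12 and HSD17B1 barcodes and 0.725% of ZP3 barcodes. Before thinning, 4.93% of the endothelial barcodes carried CHODL at a median of 5719 UMIs, 14.5% of the FST group at 9624.5 UMIs and 17.4% of the ZP3 group at 45381 UMIs. The members had a median of 3298 UMIs. Just inside the threshold, 109 members had as many CHODL as MGP and COL12A1 UMIs, and just outside it 69 barcodes had 1 CHODL UMI fewer. TCF21 stood at 671 CPM inside and 759 CPM outside, PDGFRA at 243 and 337 CPM, IGFBP3 at 85.8 and 63.8 CPM, and DCN at 4332 and 5331 CPM. CITED1, a transcriptional coactivator, stood at 155 CPM inside and 53.2 CPM outside.

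The members were not 1 group of cells. The E125 barcodes fell into 28 clusters when CHODL, MGP and COL12A1 were left out of the clustering, and 17 clusters held at least 1 member. Cluster 4 held 180 members, cluster 2 held 121, cluster 12 held 52 and cluster 8 held 45. Cluster 1 held 29, cluster 11 held 19, cluster 15 held 13, and the cycling clusters 16, 17 and 20 held 24 together. Cluster 4 was the only TCF21-bearing cluster in which members outnumbered MGP COL12A1 stroma, with 180 against 120 barcodes. In cluster 2 the numbers were 121 against 543 and in cluster 8 45 against 186. Over all their barcodes, clusters 2, 8 and 4 had the highest CHODL levels of the library, at 265, 230 and 223 CPM. Cluster 6, with 342 MGP COL12A1 barcodes, had the highest TCF21 level, 1542 CPM, with CHODL at 1.90 CPM and no member.

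**Figure D1:**
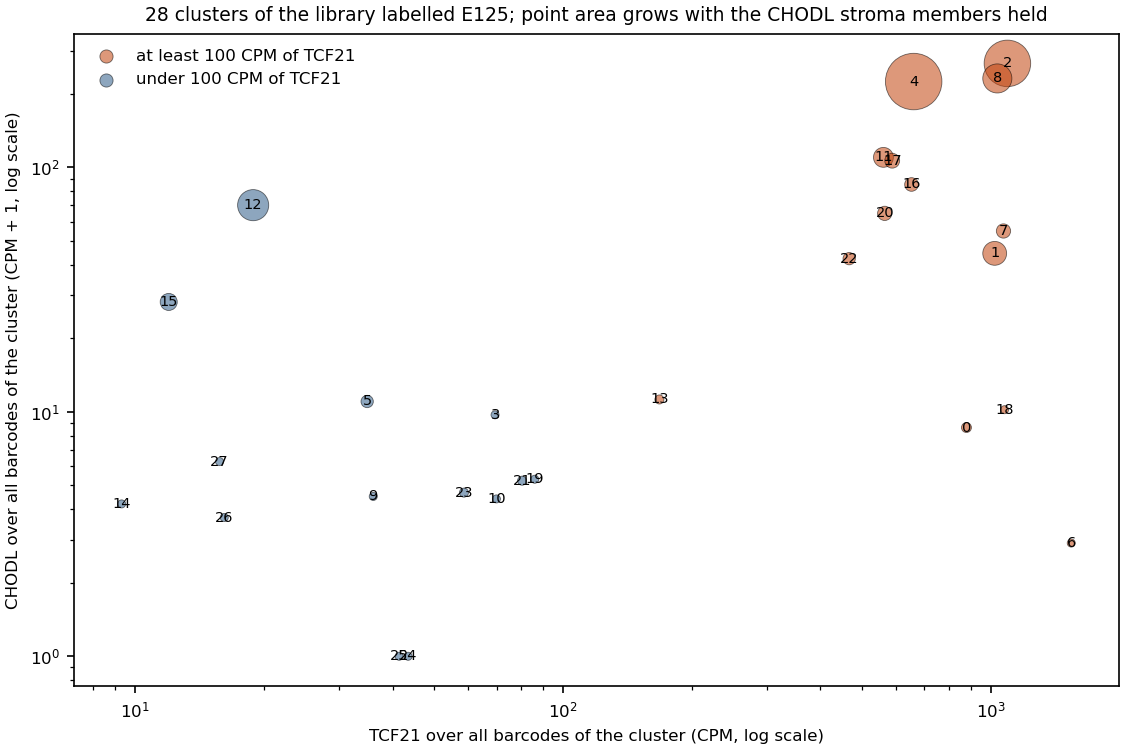
Level of CHODL (CPM + 1, log scale) against that of TCF21 (CPM, log scale) in each of the 28 clusters of the library labelled E125, numbered, with the area of a point growing with the members it holds. Clusters 2, 4 and 8 lie at the upper right, whereas cluster 12 holds 52 members at 18.9 CPM of TCF21.

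TCF21 split the clusters. In 14 clusters it was at least 100 CPM, the lowest of them at 168 CPM and the highest of the others at 86.0 CPM, a division made after the values were seen. The TCF21 clusters held 434 members, 85.8%, and the others 72, 14.2%. Those 72 were deep, with a median of 9741.5 UMIs against 3017.5 in the 434, so they gave 40.6% of the UMIs summed over the members. Only 12 of the 72 carried a UMI of PDGFRA or TCF21, against 380 of the 434. TCF21 stood at 9.83 CPM in the 72 and at 780 CPM in the 434, and PDGFRA at 5.90 and 326 CPM. In MGP COL12A1 stroma of the TCF21 clusters, TCF21 was higher than in the 434, at 958 CPM, and PDGFRA lower, at 271 CPM. These levels largely restate the division. DCN, which the division did not use, stood at 69.8 CPM in the 72 and at 5709 CPM in the 434, though it was among the genes clustered. The 72 are called members of clusters low in TCF21. CHODL over all barcodes of cluster 12 stood at 69.1 CPM (59.8 to 79.3) and of cluster 15 at 27.2 CPM (19.7 to 36.6). Cluster 12 carried CHODL in 52.3% of its barcodes at a median of 9741.5 UMIs, whereas cluster 5, led by SYT6, carried it in 9.11% at a median of 7914 UMIs. In cluster 3, led by the endothelial genes CA4, VWF and ESM1, it was 8.72 CPM (5.70 to 12.8), and in the ZP3-led cluster 14 it was 3.20 CPM.

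Members of cluster 4 carried growth factor and type I collagen RNA. IGFBP3, which binds insulin-like growth factors, stood at 389 CPM in them, against 26.6 CPM in the other members. INHBA, the beta A subunit of activin and inhibin, stood at 457 against 73.1 CPM, and FGF7, a fibroblast growth factor that acts on epithelia, at 72.3 against 6.13 CPM. DLK1, an imprinted membrane protein of progenitor cells, stood at 193 against 31.2 CPM, CCND1, cyclin D1, at 327 against 59.8 CPM, and MYLK, a myosin kinase of contractile cells, at 1005 against 224 CPM. COL1A2, a chain of type I collagen, stood at 4761 against 1057 CPM. For this and the other TCF21 clusters below, the other members include the 72 of clusters low in TCF21. Those 72 hold 40.6% of the members' UMIs and lower the reference for stromal genes. COL1A2 stood at 20.6 CPM in the 72 and at 3138 CPM in all 434 members of TCF21 clusters. The genes named for each group of members were ranked by the same counts that formed the clusters, so they are a description too.

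Members of cluster 2 had less type I collagen RNA, with COL1A2 at 1879 CPM. CORIN, a membrane serine protease, stood at 138 CPM in them against 18.7 CPM in the other members, CA3, a carbonic anhydrase, at 306 against 60.0 CPM, and SULF1, which trims heparan sulfate, at 210 against 48.3 CPM. ADAMTS1, a secreted metalloprotease, stood at 833 CPM and IGFBP5 at 2529 against 769 CPM. Members of cluster 8 were marked by secreted immune mediators. The collectin COLEC11 stood at 194 against 8.40 CPM, the eosinophil chemokine CCL11 at 251 against 14.6 CPM and the interferon-induced chemokine CXCL10 at 2873 against 531 CPM. DUSP6, a phosphatase of ERK kinases, stood at 198 against 27.4 CPM. C3, the central complement component, was found in both, at 780 CPM in members of cluster 2 and 542 CPM in members of cluster 8, but at 61.5 CPM in members of cluster 4.

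Smaller groups differed again. In 19 members of cluster 11, PENK, the enkephalin precursor, stood at 1626 against 124 CPM in the other members, DLK1 at 759 against 51.3 CPM and the WNT antagonist SFRP1 at 596 against 39.9 CPM. There ACTA2, smooth muscle actin, stood at 1156 against 228 CPM, and MFAP5, a microfibril protein, at 470 against 1.22 CPM. In 29 members of cluster 1, DHRS3, which reduces retinal, stood at 682 against 112 CPM and the WNT modulator SFRP2 at 645 against 143 CPM. The 24 members of clusters 16, 17 and 20 held 389 TOP2A UMIs, 2707 CPM against 4.23 CPM in the other members, with the mitotic genes CENPF at 3368 against 17.8 CPM and TPX2 at 1287 against 5.07 CPM. These 24 still carried TCF21 at 751 CPM and DCN at 4899 CPM.

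The 52 members of cluster 12 and the 13 of cluster 15 were of another kind. In cluster 12 members TCF21 stood at 9.27 CPM, DCN at 47.5 CPM and COL1A1 at 5.80 CPM. CITED1 stood at 606 CPM, ERICH3 at 352 against 4.86 CPM in the other members, ACP5, an acid phosphatase, at 572 against 24.3 CPM, and NMB, the neuromedin B precursor, at 255 against 10.9 CPM. The complement genes C3 and CFD stood at 1479 and 1003 CPM and SOX9, a transcription factor of Sertoli and other cells, at 175 CPM. AMH had 4 UMIs in these members. In cluster 15 members no UMI of TCF21 or PDGFRA was found. There KRT7, an epithelial keratin, stood at 831 against 35.0 CPM, NR1H4, the bile acid receptor, at 694 against 21.7 CPM, the NOTCH target HEY2 at 274 against 4.58 CPM and CITED1 at 612 CPM.

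**Figure D2:**
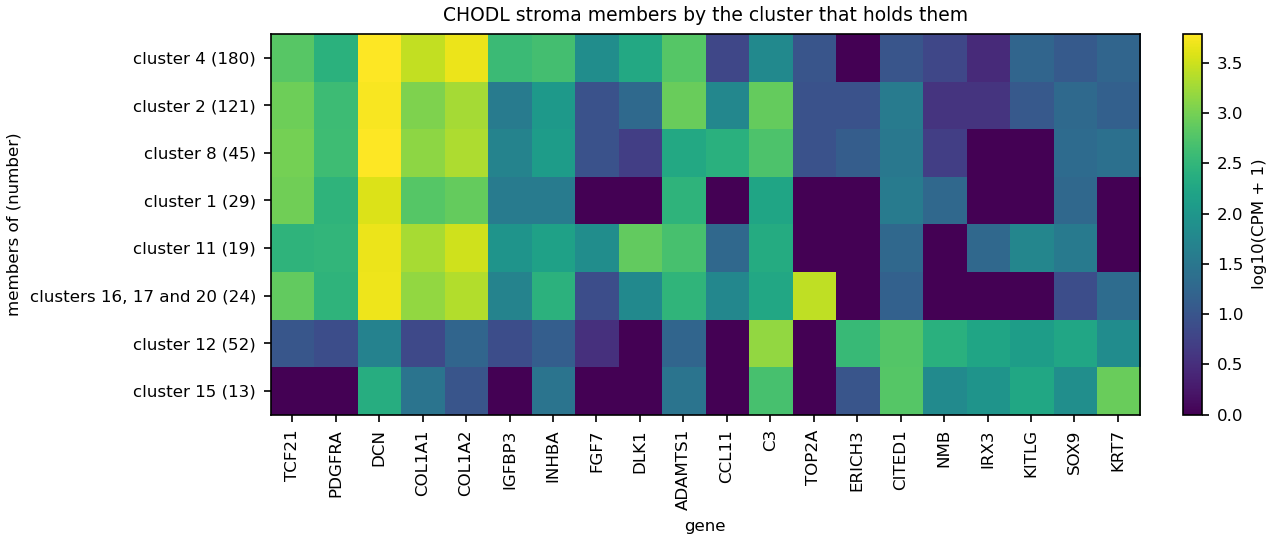
Levels of selected genes, as log10(CPM + 1) of summed UMIs, in members of CHODL stroma grouped by the cluster that holds them, with the number of members in brackets. The upper 6 groups carry TCF21, PDGFRA, DCN and type I collagen, while members of clusters 12 and 15 carry CITED1 at 606 and 612 CPM and KITLG at 129.8 and 183 CPM.

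Against MGP COL12A1 stroma, the Iroquois transcription factors IRX5 and IRX3 led the genes higher in all members, and GRIN2B, ITIH5, WIF1 and DHRS3 were among those lower. Of 7821 genes with a symbol and at least 50 UMIs over both classes, 326 (4.17%) were at least 2-fold higher in CHODL stroma and 436 (5.57%) at least 2-fold lower, with a median log2 ratio of -0.03. IRX5 stood at 88.5 against 4.97 CPM, 17.8-fold (13.6 to 23.6), and IRX3 at 65.3 against 3.99 CPM, 16.4-fold. CITED1 stood at 253 against 21.2 CPM, the extracellular glycoprotein RELN at 135 against 13.4 CPM, and desmoplakin, DSP, at 85.7 against 8.75 CPM. LHX9, a LIM homeobox factor needed for gonad formation in the mouse, stood at 61.0 against 7.35 CPM, and KITLG, the ligand of the KIT receptor, at 61.4 against 7.42 CPM. ERICH3, NMB, TF, CPXM2, SLC16A11, NTN1 and ACP5 completed the 14 genes named by the ranking.

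For 12 of these 14 genes the difference passed 2-fold only with the 72 members of clusters low in TCF21 included. With both classes restricted to TCF21 clusters, 2 of the 14 genes, LHX9 and KITLG, stayed at least 2-fold higher. Inside clusters 2, 4 and 8, LHX9 had ratios of 0.761, 2.38 and 1.06, and KITLG had 4 against 7, 9 against 7 and 0 against 5 UMIs, so neither was higher in each cluster. IRX5 then stood at 3.35 CPM in members and CITED1 at 21.4 CPM, against 213 and 592 CPM in the 72. RELN, TF, CPXM2, DSP, NTN1 and ACP5 turned to the other side, with log2 ratios of -0.88, -0.33, -0.45, -1.56, -1.69 and -0.82. The 14 genes named as lower in the members all stayed at least 2-fold lower. GRIN2B, an NMDA receptor subunit, stood at 14.1 CPM in the 434 members against 111 CPM in the 3995 MGP COL12A1 barcodes of those clusters. ITIH5, which binds hyaluronan, stood at 74.4 against 441 CPM and WIF1, a secreted WNT inhibitor, at 11.4 against 66.3 CPM. THBS1, the matrix protein thrombospondin 1, stood at 50.9 against 153 CPM, and APOD, a lipid carrier, at 90.5 against 215 CPM. Inside clusters 2, 4 and 8, 3 of the 14 had a ratio above 1. These were ALDH1A3 with 1.02 in cluster 2, and APOD with 1.48 (1.02 to 2.12) and CTNND2 with 1.91 (0.940 to 3.70) in cluster 8.

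**Figure D3:**
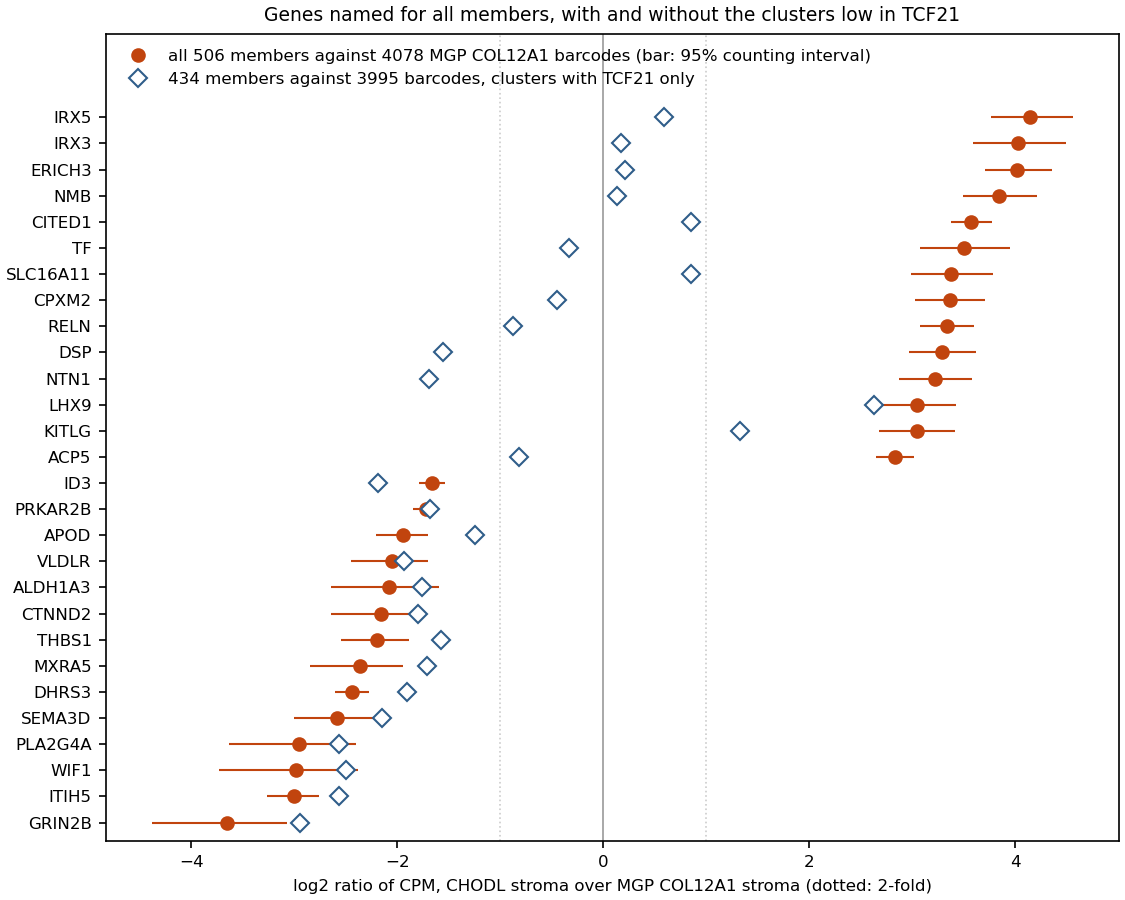
Log2 ratio of CPM, CHODL stroma over MGP COL12A1 stroma, for the 28 genes named over all 506 members (filled, with 95% counting intervals) and for the same genes in TCF21 clusters alone (open). The upper 14 genes lie between 2.84 and 4.15 with all members, and only LHX9 and KITLG stay above 1 in TCF21 clusters, whereas the lower 14 stay under -1.

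Within TCF21 clusters, IGFBP3, INHBA, LTBP1 and COL1A2 were among the genes higher in CHODL stroma, and PCOLCE2, ITIH5, CADM1, WNT5A and DHRS3 among those lower. Of 7552 genes, 182 (2.41%) were at least 2-fold higher in the 434 members and 511 (6.77%) at least 2-fold lower, with a median log2 ratio of -0.09. Of the 326 genes higher with all members 71 were also higher here, 21.8% of the first list and 39.0% of the second. Of the 436 lower genes 239 were also lower here, 54.8% of the first list and 46.8% of the second.

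Among secreted signals and their partners, IGFBP3 stood at 175 against 27.0 CPM, 6.48-fold (5.51 to 7.61), and INHBA at 256 against 60.6 CPM, 4.23-fold (3.73 to 4.78). LTBP1, which holds latent TGF-beta in the matrix, stood at 691 against 211 CPM, 3.27-fold (3.04 to 3.51), and the angiopoietin-related ANGPTL5 at 55.0 against 14.9 CPM. In the matrix, COL1A2 stood at 3138 against 1027 CPM, 3.05-fold (2.95 to 3.16), COL15A1, a basement membrane collagen, at 59.7 against 17.4 CPM, and HAPLN1, which links hyaluronan to proteoglycans, at 120 against 36.2 CPM. The ephrin receptor EPHA7 stood at 80.4 against 22.3 CPM, the GTPase-activating protein ARHGAP20 at 286 against 72.6 CPM and the adenylate kinase AK5 at 50.3 against 9.42 CPM. TSPAN33, CRISPLD2, NRK and PDGFRL were the other genes named as higher, between 3.00-fold and 4.57-fold.

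On the lower side, PCOLCE2, an enhancer of procollagen processing, stood at 18.8 against 169 CPM, 0.111-fold (0.0737 to 0.161), and the anti-angiogenic SERPINF1 at 19.4 against 142 CPM, 0.137-fold (0.0917 to 0.198). The adhesion molecule CADM1 stood at 75.1 against 390 CPM, the ligand WNT5A at 99.2 against 453 CPM, and IGFBP2 at 163 against 753 CPM. With all members, PCOLCE2 stood at 113 against 167 CPM and CADM1 at 304 against 392 CPM, both short of 2-fold. In the 72 members of clusters low in TCF21 these genes stood at 252 and 640 CPM. ID3, an inhibitor of helix-loop-helix factors and a target of BMP signals, stood at 156 against 709 CPM. DHRS3 stood at 184 against 691 CPM, 0.267-fold (0.236 to 0.301), and the axon guidance ligand SEMA3D at 31.5 against 141 CPM. PLA2G4A, PTGER2, IVNS1ABP, GRIN2B, ITIH5 and WIF1 made up the other lower genes named.

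The 2 classes shared clusters but were spread differently over them. Inside a cluster, their values were nearer to each other on the higher side. Inside cluster 4, IGFBP3 stood at 389 CPM in 180 members against 305 CPM in 120 MGP COL12A1 barcodes, 1.28-fold (1.02 to 1.60), and INHBA at 457 against 382 CPM, with an interval of the ratio of 0.979 to 1.47. COL1A2 was 1.34-fold there, 1.64-fold in cluster 2 and 1.03-fold in cluster 8. Of the 14 higher genes, 5 were at least 2-fold higher in cluster 2, 1 in cluster 4 and 0 in cluster 8, with median ratios of 1.86, 1.23 and 1.06. The lower genes kept more of their difference by these ratios. All 14 genes named as lower in TCF21 clusters had ratios under 1 in each of clusters 2, 4 and 8. At least 2-fold lower were 12, 9 and 6 of them, with median ratios of 0.349, 0.441 and 0.555. No limit on UMIs was set for these counts, and several rest on few. In cluster 4, WIF1 had 1 against 5 UMIs, PTGER2 2 against 6 and GRIN2B 4 against 7, with intervals that include 1. In cluster 8, WIF1 had 0 against 10. The 14 genes were ranked on the 434 members, of which clusters 2, 4 and 8 hold 346. Ratios under 1 there are therefore partly set by the ranking. DHRS3 had ratios of 0.415, 0.452 and 0.532 in clusters 2, 4 and 8 and of 0.201 in cluster 12, and SEMA3D 0.427, 0.342 and 0.282 in the first 3. PDGFRA hardly differed, at 0.997, 0.940 and 1.02. Since MGP COL12A1 stroma was chosen for MGP and COL12A1, a gene whose level follows those 2 within a cluster is lower in the members by the choice.

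Few genes passed 2-fold inside clusters. In cluster 2, 11 of 3499 genes (0.314%) were higher and 101 (2.89%) lower. In cluster 4, 17 of 1951 (0.871%) were higher and 14 (0.718%) lower. In cluster 8, 11 of 2356 (0.467%) were higher and 66 (2.8%) lower. In cluster 12, where the 52 members had a median of 12591 UMIs against 6335.5 in 22 MGP COL12A1 barcodes, 113 of 2365 (4.78%) were higher and 21 (0.888%) lower. The clusters differ in UMIs, and so in which genes reach 50 UMIs.

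**Figure D4:**
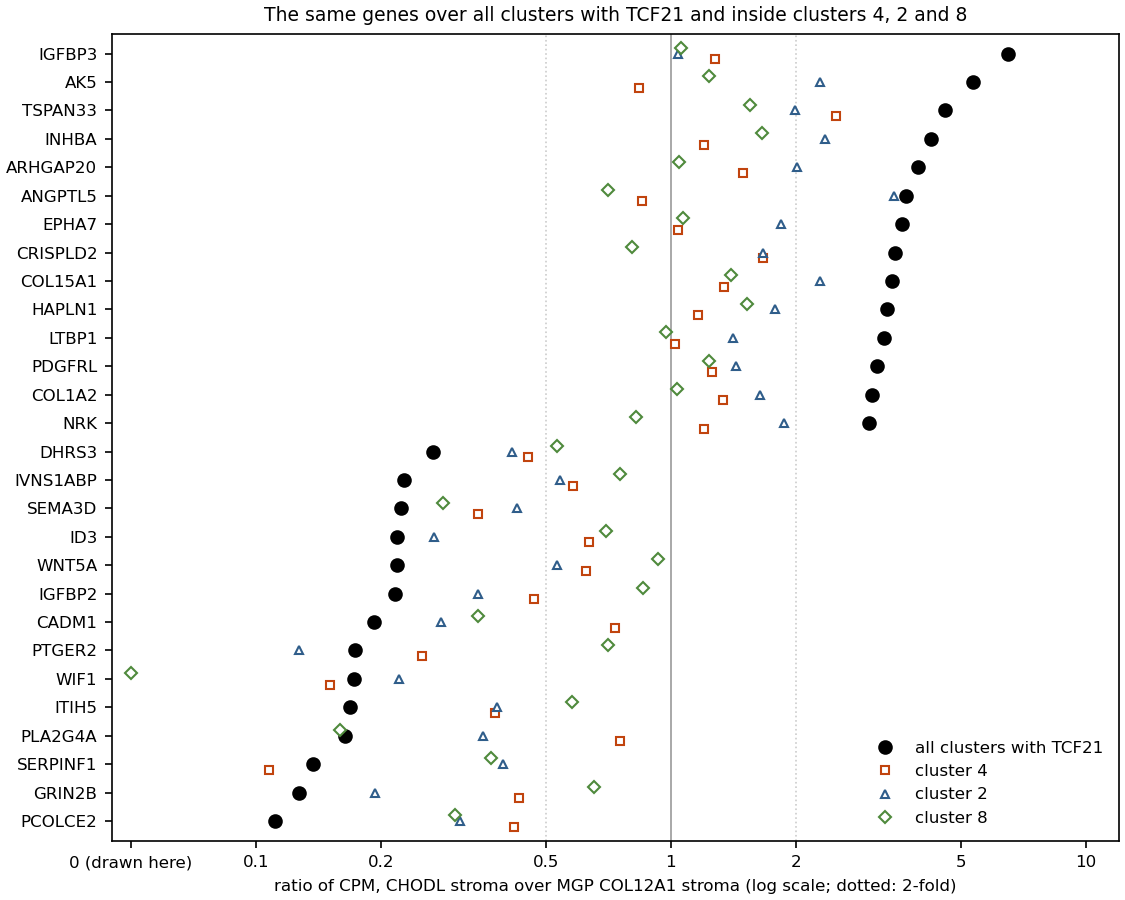
Ratio of CPM (log scale), CHODL stroma over MGP COL12A1 stroma, for the 28 genes named in TCF21 clusters, over all those clusters (filled circles) and inside clusters 4, 2 and 8 (open symbols). The higher genes lie near 1 inside clusters 4 and 8, with median ratios of 1.23 and 1.06. The lower genes stay under 1 in all 3, several of them on few UMIs.

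The gene lists below were written with earlier results of these data known, and members of a list beyond its 4 most abundant were named after their values were seen. Counts refer to TCF21 clusters unless all members are named. Over all genes measured, 2.41% were higher and 6.77% lower in TCF21 clusters, and 4.17% and 5.57% with all members. Of 13 collagens measured, 4 were at least 2-fold higher in CHODL stroma and 1 lower, with a median log2 ratio of 0.76 beside -0.09 over all genes measured. COL1A1 stood at 1889.5 against 723 CPM, 2.61-fold (2.51 to 2.73), and COL6A2 at 432 against 201 CPM, and COL1A2 and COL15A1 were given above. The network collagens of basement membranes went the other way, with COL4A1 at 127 against 202 CPM and COL4A2 at 137 against 207 CPM, both short of 2-fold. With all members 1 collagen was higher and 2 lower, with a median of 0.16. Inside clusters 2, 4 and 8 the collagen medians were 0.43, 0.11 and -0.06, and no collagen passed 2-fold.

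Of 37 matrix glycoproteins and proteoglycans, 9 were higher and 3 lower (2.41% and 6.77% over all genes measured), with a median of 0.40. The small proteoglycans OGN and ASPN stood at 684 against 281 CPM and at 144 against 58.9 CPM, the proteoglycan LUM at 185 against 90.1 CPM, and the basement membrane linker NID1 at 73.7 against 26.1 CPM. THBS1 was lower, as given above, as was TNC with 6 against 156 UMIs. With all members the counts were 5 higher and 8 lower, and the median was -0.11. Of 18 proteases and inhibitors 3 were higher, with ADAMTS1 at 550 against 242 CPM, and 3 lower, PCOLCE2, SERPINF1 and SERPINE2.

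Of 27 stromal transcription factors, 3 were higher and 2 lower (2.41% and 6.77% over all genes measured), with a median of 0.06. LHX9 stood at 34.2 against 5.55 CPM, 6.16-fold (4.23 to 8.90), and the zinc finger factor OSR2 had 35 against 132 UMIs, 2.44-fold (1.63 to 3.56). TBX3 stood at 137 against 287 CPM. With all members, EMX2, a homeobox factor of the early gonad, was also past 2-fold, at 105.2 against 29.3 CPM, but in TCF21 clusters it stood at 31.5 against 26.1 CPM.

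Among ligands, FGF7 stood at 33.5 against 7.01 CPM, 4.78-fold (3.33 to 6.80). Members of cluster 4 held 40 of its UMIs, 72.3 CPM there against 6.13 CPM in the other members. FGF10 had 18 against 60 UMIs, 2.76-fold (1.53 to 4.73), and the ERBB ligand NRG1 stood at 26.1 against 3.28 CPM, 7.96-fold (5.05 to 12.5). The whole list of receptor kinases and ligands had 4 of 20 higher and 6 lower, with a median of -0.33. Over all genes measured the shares were 2.41% and 6.77%. PDGFA, a ligand of PDGFRA, stood at 173 CPM in all members against 27.9 CPM in MGP COL12A1 stroma, but at 14.7 against 20.1 CPM in TCF21 clusters. Of 8 hedgehog genes 1 was higher, HHIP, a target that binds hedgehog ligands, at 38.9 against 7.52 CPM, 5.17-fold (3.68 to 7.20). The receptor PTCH1 stood at 68.4 against 35.9 CPM, 1.90-fold. DHH, the desert hedgehog ligand, had 2 UMIs in all members.

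Of 17 WNT genes, 3 were higher and 4 lower (2.41% and 6.77% over all genes measured), with a median of -0.38. The secreted modulators were split. DKK1 stood at 30.2 against 6.79 CPM, 4.44-fold (3.04 to 6.41), SFRP1 at 68.4 against 28.8 CPM and RSPO3 at 14.7 against 6.79 CPM, while WIF1, WNT5A, LEF1 and WNT11 were lower. Of 14 genes of the insulin-like growth factor axis, IGFBP3 was higher and IGFBP2 lower. IGFBP5, the most abundant binding protein of the list, stood at 1603 against 1633 CPM, and IGF1 at 187 against 112 CPM. Of 23 BMP and TGF-beta genes, INHBA and GDF10 were higher, and ID3, BAMBI and TGFB1 lower.

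Of 12 retinoid genes, 1 was higher and 6 lower (2.41% and 6.77% over all genes measured). The median of -0.93 was the lowest of the 23 lists. The retinoic acid synthesis genes ALDH1A1 and ALDH1A3 stood at 42.9 against 106 CPM and at 16.8 against 57.9 CPM, the retinol dehydrogenase RDH10 at 55.6 against 130 CPM, and DHRS3 as given above. CYP26B1, which breaks down retinoic acid, had 5 against 146 UMIs and the receptor RARB 6 against 137. Inside clusters the differences were smaller for several of them. All 5 CYP26B1 UMIs lay in cluster 8, against 19 UMIs there, a ratio of 1.11 (0.325 to 3.08). ALDH1A3 had a ratio of 1.02 in cluster 2, and RDH10 of 0.542, 0.723 and 1.19 in clusters 2, 4 and 8. The median of the 6 retinoid genes measured in cluster 2 was -0.41. The binding protein CRABP2 was higher, with 21 against 38 UMIs. Of the 21, 17 lay in cluster 4, at a ratio of 1.83 (0.721 to 5.22), and cluster 2 had 0 against 4 UMIs. With all members 2 of 13 were higher and 4 lower, and the median was -0.27. In that comparison RDH10 stood at 129.9 against 130.1 CPM and ALDH1A1 at 110.0 against 106 CPM.

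**Figure D5:**
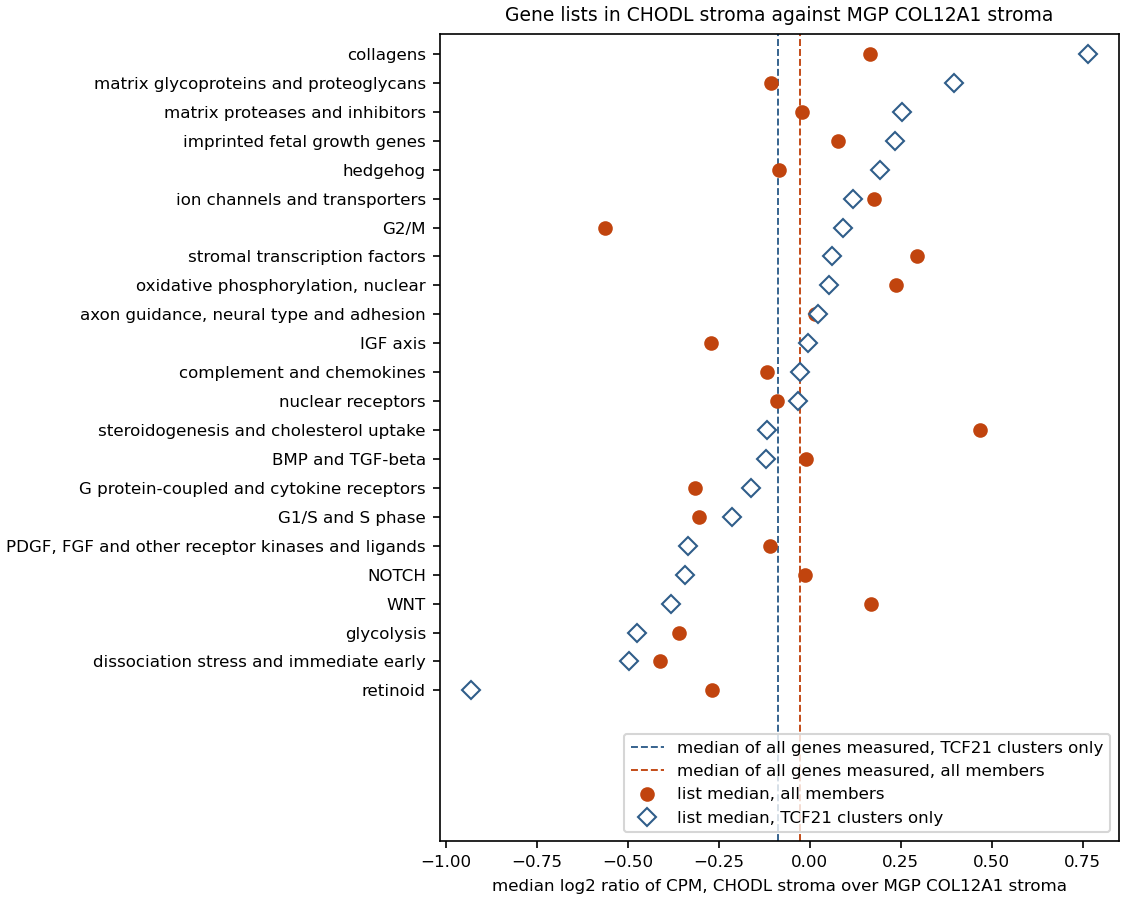
Median log2 ratio of CPM, CHODL stroma over MGP COL12A1 stroma, of the 23 gene lists, with all members (filled) and in TCF21 clusters alone (open). Collagens have the highest median in TCF21 clusters, 0.76, and retinoid genes the lowest, -0.93, and dashed lines mark the medians of all genes measured.

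No G2/M gene passed 2-fold in either comparison. Their median was -0.56 with all members, where 0 of 17 were above 0, and 0.09 in TCF21 clusters, where 10 of 17 were above 0. Thinned to 1000 UMIs, 20 of the 434 members in TCF21 clusters (4.61%, 2.84 to 7.03) had at least 3 G2/M UMIs, against 171 of 3995 MGP COL12A1 barcodes (4.28%, 3.67 to 4.95). Before thinning the shares were 6.22% and 7.23%. Of the 72 other members 7 (9.72%) passed before thinning and 0 after it, which allows up to 4.99%. For S phase genes the thinned shares were 2.53% of the 434 members, against 3.45% of the MGP COL12A1 barcodes. Of 14 genes of dissociation stress and immediate early response, 0 were higher and 2 lower in TCF21 clusters, with a median of -0.50. Over all genes measured there, 2.41% were higher and 6.77% lower. Nuclear genes of oxidative phosphorylation had a median of 0.05, with none of 11 past 2-fold. The median mitochondrial share was 2.59% in the 434 members, 6.31% in the 72 and 3.38% in MGP COL12A1 stroma.

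Markers of other cell types differed between the 72 and the 434, and their part in the results above was not tested. The 8 Sertoli genes in the files summed to 809 CPM in the 72 and to 44.2 CPM in the 434, against 55.6 CPM in MGP COL12A1 stroma. In the 72, CITED1 alone gave 592 CPM of that sum. The 11 pregranulosa genes summed to 370 and 57.6 CPM, against 56.7 CPM, and the 8 epithelial or mesothelial genes to 449 and 71.1 CPM, against 59.3 CPM. IRX3 and KITLG gave 158 and 134 CPM of the pregranulosa sum in the 72. The 11 endothelial genes summed to 310 and 44.2 CPM, against 76.2 CPM. Of these, KDR, a VEGF receptor, stood at 202 CPM in members of cluster 12, and CDH5, TIE1 and EGFL7 had no UMI in the 72. Both stroma classes were chosen to be low in CDH5, ROBO4, SOX18, TIE1 and ESAM, which are among the endothelial genes. They were also chosen to be low in FST, KCNK12 and HSD17B1, which are among the pregranulosa genes. These sums, and the absence of CDH5 and TIE1, are therefore partly set by the choice. Mural, smooth muscle and oocyte genes were higher in the 434. The 9 mural genes summed to 138 CPM in the 72 and 908 CPM in the 434, against 646 CPM in MGP COL12A1 stroma. ACTA2 gave 402 CPM of that sum in the 434, while RGS5, also a mural gene of the list, had no UMI in any member. ACTA2, MYH11 and TAGLN are among the smooth muscle genes too, so the mural and smooth muscle sums share their UMIs. The 7 peritubular or smooth muscle genes summed to 114 and 1207 CPM, against 691 CPM in MGP COL12A1 stroma, with ACTA2 in the 434 at 402 against 200.4 CPM and ACTG2, enteric smooth muscle actin, at 320.4 against 132 CPM. Leukocyte genes summed to 4.02 CPM in the 434, with 8 of 13 at 0, and the 3 erythroid genes were at 0 in all members. The 4 Leydig genes summed to 31.9 CPM in all members, and INSL3 had no UMI. The 9 oocyte genes summed to 60.9 CPM in the 72 and 179 CPM in the 434, against 183 CPM in MGP COL12A1 stroma and 3575 CPM in all other barcodes. ZP3 is among these genes and was limited by the choice in both stroma classes, so the distance to all other barcodes is partly set by it. Whether 2 cells shared a barcode was not tested for single members.

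Against all other E125 barcodes, 463 of 10290 genes (4.5%) were at least 2-fold higher in CHODL stroma and 2171 (21.1%) at least 2-fold lower. The lower side held genes of classes that the choice left out, such as the lymphatic genes CCL21, at 10.4 against 548 CPM, and LYVE1, at 1.59 against 109 CPM, and the oocyte factor FIGLA, at 26.3 against 834 CPM. On the higher side, COL1A2 stood at 1874 against 441 CPM, LTBP1 at 648 against 156 CPM and C3 at 746 against 188 CPM. C3 stood at 357 CPM in the 434 members, whose log2 ratio to the rest was 0.93 and so short of 2-fold, and at 1317 CPM in the 72. Of 13 collagens 8 were higher and 2, COL4A1 and COL4A2, lower. Of 12 NOTCH genes 0 were higher and 8 lower. ERICH3 and CPXM2 were 5.95-fold and 5.99-fold higher over all members but at log2 ratios of -2.26 and -2.16 when the 434 members alone were set against the rest.

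Across the 28 clusters, EPHA7, LRP1B, HAPLN1, LUM and ADAMTS2 were among the 6 genes whose log2(CPM + 1) followed CHODL most closely, with Pearson r between 0.77 and 0.81 among 4833 genes. EPHA7 stood at 93.5, 45.1 and 79.5 CPM in clusters 4, 2 and 8, and at 6.75 CPM in cluster 0. It also stood at 52.4 CPM in cluster 15 and 53.5 CPM in cluster 22, where CHODL was 27.2 and 41.3 CPM. LRP1B, a large lipoprotein receptor, stood at 85.4 CPM in cluster 4 and at 10.8 CPM in cluster 2. PDGFRA ranked 77th with r = 0.66, DCN 48th with 0.69 and TCF21 270th with 0.56. The points share 1 library and differ in depth, so these values are a description.

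The same rule found fewer barcodes at the earlier stages, 95 of 6376 (1.49%) at E85, 146 of 7124 (2.05%) at E105 and 506 of 7325 (6.91%) at E125. MGP COL12A1 stroma by its own rule made up 2.45%, 2.51% and 55.7%. Barcodes that met the CHODL rule had 146, 196 and 465 CPM of CHODL. At E85 and E105 they held 106 and 155 CHODL UMIs, little over 1 each. AMH was carried by 41.1% and 32.9% of them, against 1.19% of the members at E125. Over the whole libraries AMH was also far higher at E85 and E105 than at E125, as given above. Shares over all kept barcodes are not given here, so these values do not set the chosen barcodes apart from their libraries. In barcodes chosen by PDGFRA under the same limits, CHODL stood at 7.99, 10.3 and 116 CPM in 628, 1414 and 2554 barcodes. In the same barcodes DLK1 stood at 1462, 2552 and 66.8 CPM, IGFBP3 at 11.8, 37.9 and 53.9 CPM, COL1A2 at 395, 1030 and 1404 CPM, and MGP at 0.381, 2.79 and 1603 CPM. CHODL and MGP were thus both highest in the library labelled E125, and DLK1 was lowest there.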

How the data were processed

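Droplet single-cell RNA counts of 3 libraries were used, 1 per stage. The authors deposited filtered matrices of raw UMI counts per feature and barcode, with Cell Ranger as the tool. Its version is 6.0.0 per the file headers, whereas the submitters' processing notes name 3.1. Build and annotation were not stated in the labels or headers, and genes carry the symbols of the files. Of 27271 features 16616 had a symbol, and these held 64.0% of the members' UMIs. Symbols carried by more than 1 feature were left out. The deposited matrices held 45339231, 40741902 and 49692252 UMIs in 7478, 8520 and 8346 barcodes for E85, E105 and E125, and the members held 2509626 UMIs.

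Barcodes with at least 1000 UMIs and at most 20% mitochondrial UMIs (13 genes) were kept. UMIs were summed per class and given as CPM. CPM values are compared between classes and not between genes. Genes with at least 50 UMIs over both classes were measured, without the 12 genes of the rule, and a gene was called at a ratio of at least 2 or at most 0.5. Log2 ratios had a prior of 0.5 UMI. Intervals are exact at 95%: Poisson for levels, Clopper-Pearson for shares, and, for ratios, a binomial split of the summed UMIs. With 1 library per stage no p-value was computed.

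Clusters were made with Leiden at resolution 1 on a graph of 15 neighbours in 30 principal components of 2000 variable genes (leidenalg 0.10.2, scikit-learn 1.9.0), without CHODL, MGP and COL12A1. The division at 100 CPM of TCF21 and the comparisons inside clusters were chosen after seeing the data. Scaling factors of the TMM alternative came from edgeR 4.0.16. No doublet caller was run, and alternatives without barcodes that carry other markers or the most UMIs were computed instead.

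The members and gene lists were chosen with earlier results of these data known. Genes were named by a rule: at least 50 CPM in either class, no ribosomal protein, mitochondrial, haemoglobin or member rule gene, and no endothelial, FST, ZP3 or leukocyte class above 10 times the level in the class where the gene was higher. Ranking was on the bound of the interval closest to 1, and the first 14 higher and 14 lower against MGP COL12A1 stroma and 8 and 6 against all other barcodes were taken, with up to 4 members of each list by CPM in CHODL stroma and the 6 genes most like CHODL across clusters. Other genes are named where few were called or where they mark a group of members, after their values were seen, and a few genes that the rule names are not reported here. The steps were tested on simulated data drawn for CHODL stroma against MGP COL12A1 stroma.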

Additional observations from a re-analysis of the deposited data

How the results depend on the processing

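No paired analysis was possible because each stage has 1 library. The share of CHODL stroma was 6.91% of the E125 barcodes, 3.52% with at least 2 CHODL UMIs, 5.42% with CHODL strictly above MGP and COL12A1, and 4.29% after thinning to 1000 UMIs. Against MGP COL12A1 stroma, 326 genes were at least 2-fold higher; the number was 167 without barcodes that carry other markers, 215 without the 6% of barcodes with most UMIs, 182 in TCF21 clusters (chosen after seeing the data), 119 after thinning and 1253 with no filter on low counts. The 436 lower genes became 2394 with no filter. Against all other barcodes, the 463 higher genes became 247 without the 6% with most UMIs, 168 after thinning and 884 with no filter, and the 2171 lower genes became 971, 770 and 4469. Fewer genes were tested after thinning and more with no filter; the cause of the other changes was not tested. Of the 28 genes named over all members, 16 stayed past 2-fold in TCF21 clusters and 24 without barcodes that carry other markers, and 28 under each of the other 8 settings. The log2 ratios that changed sign in TCF21 clusters were those of RELN (-0.88), TF (-0.33), CPXM2 (-0.45), DSP (-1.56), NTN1 (-1.69) and ACP5 (-0.82), and, with the TCF21 members against all other barcodes, ERICH3 (-2.26) and CPXM2 (-2.16). Of 230 medians of gene lists under these settings, 65 moved by over 0.2. The share of members in TCF21 clusters was 85.8% at both resolutions and with CHODL, MGP and COL12A1 kept in the clustering. At a median of 3298 UMIs per member, a single CHODL UMI decides 248 memberships.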

Other observations

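Features without a symbol also differed between the classes. In TCF21 clusters, ENSCHIG00000006002 stood at 1180 CPM in CHODL stroma against 208 CPM in MGP COL12A1 stroma, 5.68-fold (5.35 to 6.03), and ENSCHIG00000024900 at 59.7 against 13.9 CPM, 4.30-fold (3.31 to 5.56). ENSCHIG00000018361 stood at 137 against 493 CPM, 0.277-fold (0.240 to 0.319), and ENSCHIG00000016060 at 69.7 against 220.4 CPM, 0.316-fold (0.258 to 0.385). The files do not pair these IDs with names.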
